A study of Mus musculus with 16 samples.

Results

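The comparison described here set the tibialis anterior muscle of knockout mice given the antisense oligonucleotide ASO1 (KO_ASO, 4 mice) against that of wild-type mice that received phosphate-buffered saline (WT_PBS, 4 mice), and asked what still differed from untreated healthy muscle after treatment. These 8 samples were chosen by their labels from the 16 RNA-sequencing libraries of the series. The other 8 were 4 wild-type mice given ASO1 (WT_ASO) and 4 knockout mice given saline (KO_PBS). All 16 libraries were fitted together, so the other 8 also shaped the filter, the scaling and the spread behind each p-value. Their levels are given below where a difference is placed beside them. The 16 animals were male mice of strain C57BL/6N aged 7 weeks, and the knockouts belonged to the Bin1mck-/- line. ASO1 is an antisense oligonucleotide, that is, synthetic nucleic acid made to bind a chosen transcript and reduce it, and per the series title that transcript is Dnm2. KO_ASO and WT_PBS therefore differed both in genotype and in treatment. The dose, the schedule, the deleted part of Bin1 and the cells in which the deletion acts were not stated in the sources at hand. Each library was taken as 1 mouse on the strength of its label, so p-values measure the spread between these libraries.

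Bin1 encodes amphiphysin 2, a protein that senses and bends membranes and helps to form the transverse tubules, the inward folds of the muscle membrane that carry the electrical signal to the calcium stores. Dnm2 encodes dynamin 2, a GTPase that wraps around membrane necks and cuts them. Mutations of either gene cause centronuclear myopathies, muscle diseases in which nuclei lie in the middle of the fibre, and both proteins bind each other at membranes. Muscle that is damaged or loses its nerve supply switches on a fetal programme, with embryonic acetylcholine receptor subunits, myogenic transcription factors and developmental sarcomere proteins.

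Total counts per library in the 2 groups ran from 27591900 to 40862854. Levels are given as CPM, read counts scaled to a common library size after TMM adjustment for composition, and differences as log2 fold changes of KO_ASO over WT_PBS with their standard error (SE). A gene was called where its adjusted p in edgeR's quasi-likelihood test, corrected over all 14960 genes tested, was under 0.05. The 7 markers of fast muscle fibres summed to 154734 to 176514 CPM in KO_ASO and to 171897 to 222657 CPM in WT_PBS, so both groups carried the transcripts of the labelled muscle. In whole muscle, fewer cells of a type and less RNA per cell cannot be told apart.

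Few genes were called between treated knockout muscle and saline wild-type muscle. Of 14960 genes, 6 were called (0.0401%), 4 of them higher (0.0267%) and 2 lower (0.0134%) in KO_ASO. The higher genes were Gm44577, Sox11, Myog and Tubb6, and the lower ones were Bin1, the deleted gene, and Dnm2, the target of the oligonucleotide. In the same fit 1878 genes (12.6%) were called between KO_PBS and WT_PBS, a comparison that shares the WT_PBS mice. An unadjusted p under 0.05 was reached by 1229 genes (8.22%), 673 higher (4.5%) and 556 lower (3.72%).

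The size of what could remain was read from 95% intervals, whose spread was estimated over all 4 groups of mice together. The median log2 fold change over all genes was -0.0024, and the 95% interval of a gene extended on median 0.35 to either side. For 12132 genes (81.1%) the whole interval lay within 2-fold in either direction. For 2331 genes (15.6%) the interval held both 0 and a difference of 2-fold or more, so that neither could be told from the other at this depth and number of mice. In 807 genes (5.39%) the 4 KO_ASO values lay all above or all below the 4 WT_PBS values, 356 higher (2.38%) and 451 lower (3.01%). Scaling by library totals alone turned that balance round, to 514 higher and 210 lower, and shifted the median of all genes to 0.05.

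The number of calls depended on the test. DESeq2 called 95 of the 14960 genes, 68 higher and 27 lower, and these included the 6 above. The DESeq2 calls within the lists below are to be read beside that number. Setting KO_ASO against both wild-type groups together gave 31, 25 higher and 6 lower. The 2 compared groups alone gave 4, without Myog and Tubb6. Limma-voom gave 7, and 4 of these were among the 6. Leaving out KO_ASO mouse 3 gave 11 calls, 8 higher and 3 lower.

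**Figure D1:**
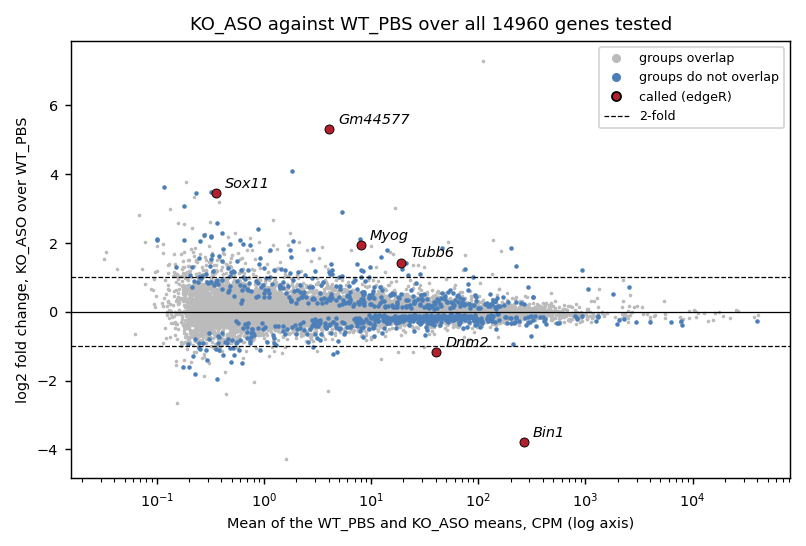
Each point is 1 of the 14960 genes tested, with the mean of both group means in CPM on a log axis and the log2 fold change of KO_ASO over WT_PBS on the vertical axis; blue points are genes whose groups do not overlap, red points the 6 called genes, and dashed lines mark 2-fold. Most genes lie between the dashed lines, and Bin1 and Gm44577 stand farthest from them among the called genes.

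The deleted gene was checked first. Bin1 stood at 475, 554, 487 and 463 CPM in the WT_PBS mice and at 35.4, 31.9, 42.9 and 31.7 CPM in the KO_ASO mice. Each KO_ASO mouse was below each WT_PBS mouse by about an order of magnitude, while transcripts from the gene were still counted. The log2 fold change was -3.80 (SE 0.12, edgeR adjusted p = 5.6e-12), or 13.9-fold lower, and the two-sided exact permutation p was 0.0286, the smallest that 4 against 4 allows. Reads of the antisense gene A830052D11Rik fall within Bin1 and can be kept apart only by strand, and how the counting treated strand was not stated in the sources at hand.

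The target of the oligonucleotide was below its wild-type level in treated knockout muscle. Dnm2 stood at 58.0, 53.4, 62.8 and 50.2 CPM in WT_PBS and at 24.4, 20.7, 22.8 and 31.1 CPM in KO_ASO. The groups did not overlap, and KO_ASO mouse 4 kept the most transcript. On the log2 scale the difference was -1.18 (SE 0.11, edgeR adjusted p = 7.24e-05). The KO_ASO mice overlapped with the WT_ASO mice, which had 23.1 to 29.4 CPM. Tmed1 overlaps Dnm2 on the other strand.

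Gm44577 had the largest rise among the called genes. It is annotated as a long non-coding RNA from a bidirectional promoter, at 18:32462579-32509064 on the plus strand of GRCm38, 26841 bases past the end of Bin1, which lies at 18:32377230-32435737 on the same strand. Counts were 4, 8, 7 and 8 in WT_PBS and 290, 244, 265 and 193 in KO_ASO. The separation was wide in every mouse, at 0.117, 0.298, 0.182 and 0.201 CPM against 7.87, 7.80, 9.17 and 6.72 CPM. KO_ASO exceeded WT_PBS by a log2 fold change of 5.32 (SE 0.21, edgeR adjusted p = 8.73e-11), and between KO_ASO and KO_PBS it was 0.01 (95% interval -0.30 to 0.32).

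Sox11, a transcription factor of embryonic development that is almost silent in adult muscle, had the second largest fold change among the 4 genes called higher. It had 2, 1, 2 and 3 counts in WT_PBS and 18, 25, 20 and 19 in KO_ASO. No mouse of either group came near the other group, although the level in KO_ASO stayed under 1 CPM, at 0.489, 0.799, 0.692 and 0.662. The fitted log2 fold change was 3.45 (SE 0.37, edgeR adjusted p = 2.04e-04). The summed counts of 82 and 8 gave a ratio of 11.4 (95% counting interval 5.51 to 27.2). WT_ASO mice stood between, at 0.131 to 0.278 CPM, and KO_PBS mice above, at 1.58 to 2.98 CPM.

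Myog, myogenin, is the transcription factor that drives myoblasts into differentiation and that rises again in denervated fibres. It stood at 3.22, 4.25, 3.22 and 2.51 CPM in WT_PBS and at 8.58, 17.2, 7.23 and 17.4 CPM in KO_ASO. The KO_ASO mice fell into a lower pair, mice 1 and 3, and a higher pair, mice 2 and 4, and both pairs lay above each WT_PBS mouse. That gave a log2 fold change of 1.94 (SE 0.31, edgeR adjusted p = 0.0418). The call was narrow, since 15 of 25 alternatives took it away, with adjusted p from 6.27e-07 to 0.243.

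Tubb6, a beta-tubulin isoform of the microtubules, showed the same split between mice. It stood at 10.7, 9.13, 11.8 and 9.88 CPM in WT_PBS and at 19.3, 34.1, 18.3 and 40.2 CPM in KO_ASO. The KO_PBS mice were higher still, at 67.2 to 82.9 CPM, without overlap with KO_ASO. The log2 fold change of KO_ASO over WT_PBS was 1.43 (SE 0.23, edgeR adjusted p = 0.0418), and 16 of 25 alternatives took this call away, with adjusted p from 2.99e-06 to 0.243. Leaving out KO_ASO mouse 2 or mouse 4, or any single WT_PBS mouse, ended the calls of both Myog and Tubb6.

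**Figure D2:**
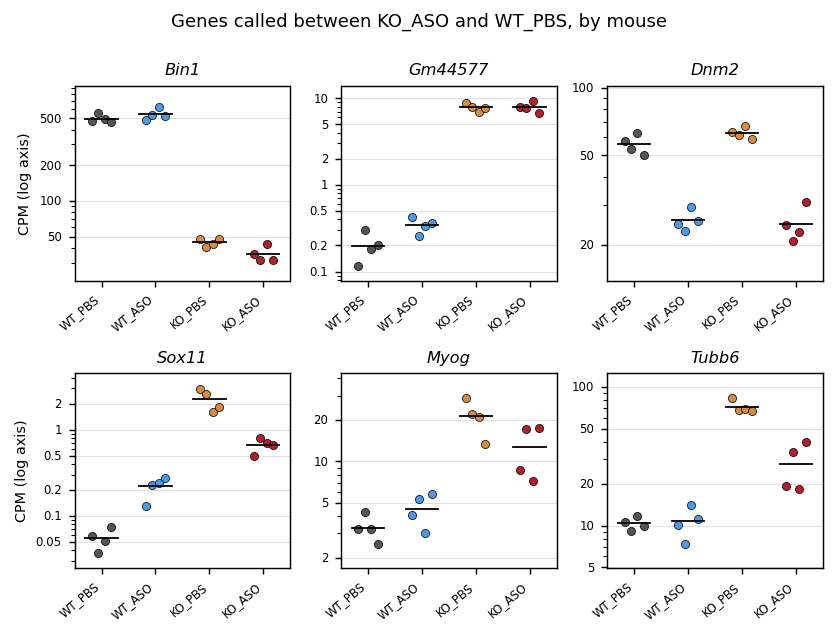
Each point is the level of a gene in 1 mouse in CPM on a log axis, for the 4 groups of 4 mice, and the black line is the group mean. Bin1 and Gm44577 separate by genotype, Dnm2 separates by treatment, and Sox11, Myog and Tubb6 in KO_ASO lie above WT_PBS and, for Sox11 and Tubb6, below KO_PBS.

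The next genes on the higher side were the 10 protein-coding genes that missed the threshold, had no overlap between groups and carried the smallest p. DESeq2 called each of them except Krt18, to which it gave no adjusted p. With 1 mouse left out edgeR called Ahnak2 (without KO_ASO mouse 3 or WT_ASO mouse 2), Anxa4 (without KO_ASO mouse 3 or KO_PBS mouse 4), Krt18 (without KO_ASO mouse 2 or 4) and Serpinb1a (without KO_PBS mouse 1). Ahnak2, a giant scaffold protein of the muscle membrane, stood at 4.33, 3.65, 5.91 and 5.47 CPM in WT_PBS and at 10.3, 14.5, 8.51 and 11.5 CPM in KO_ASO, with a log2 fold change of 1.20 (SE 0.20, edgeR adjusted p = 0.0514). It passed the threshold in 6 of 25 alternatives, with adjusted p from 2.10e-05 to 0.196. Its KO_PBS level was 62.8 to 91.4 CPM, so the treated mice lay far nearer to wild type.

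Anxa4, a calcium-dependent annexin that binds membranes, stood at 12.6, 12.3, 13.6 and 12.6 CPM in WT_PBS and at 18.8, 18, 16.3 and 21.0 CPM in KO_ASO. The WT_PBS mice were within a narrow band and each KO_ASO mouse was above it, by a log2 fold change of 0.53 (SE 0.10, edgeR adjusted p = 0.0927). Mustn1, a small nuclear protein of muscle and skeleton that is active in regeneration, stood at 53.7, 55.1, 78.6 and 48.0 CPM and at 138, 88.6, 102 and 149 CPM, a log2 fold change of 1.02 (SE 0.21, edgeR adjusted p = 0.115). Ttc9 had a log2 fold change of 1.59, Serpinb1a, an inhibitor of neutrophil proteases, one of 1.39, Cpne2, a calcium-dependent membrane-binding copine, one of 1.20 and Tnfrsf23, a decoy receptor of the TNF family, one of 0.67, and the edgeR adjusted p was 0.0927 for each of these 4 genes.

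Krt18, a keratin of the intermediate filaments, had the widest fold change of these 10 genes and the widest spread. WT_PBS mice had 0.234, 0.149, 0.208 and 0.201 CPM and KO_ASO mice 1.19, 9.94, 2.01 and 0.697 CPM. KO_ASO mouse 2 reached the KO_PBS range of 9.52 to 17.1 CPM, while the other 3 did not. The fitted change was 4.09 on the log2 scale (SE 0.78, edgeR adjusted p = 0.0927). Krt8, the usual partner of Krt18 in a filament, was singled out after its values were seen. It had 2, 0, 5 and 0 counts in WT_PBS and 12, 42, 9 and 12 in KO_ASO, with the highest value again in mouse 2.

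The 10 lower genes taken by the same rule were each called by DESeq2, and edgeR called Tiam1 without KO_ASO mouse 3. Tiam1, an activator of the GTPase RAC1, stood at 5.32, 8.12, 4.62 and 6.69 CPM in WT_PBS and at 2.25, 1.98, 3.91 and 2.33 CPM in KO_ASO. Mouse 3 was the KO_ASO mouse nearest to wild type. On the log2 scale the difference was -1.24 (SE 0.23, edgeR adjusted p = 0.0927, over the alternatives 4.41e-04 to 0.400). Dcun1d2, which helps to attach NEDD8 to cullins, was tight in both groups, at 115, 123, 117 and 124 CPM against 98.6, 94.0, 99.5 and 92.2 CPM, a log2 fold change of -0.32 (SE 0.07, edgeR adjusted p = 0.118).

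Cacna1c, the pore subunit of the cardiac-type calcium channel, stood at 7.08, 6.00, 7.29 and 6.79 CPM in WT_PBS and at 3.94, 3.68, 4.64 and 5.12 CPM in KO_ASO. On the log2 scale the difference was -0.65 (SE 0.15, edgeR adjusted p = 0.171), beside -0.62 in KO_PBS and -0.55 in WT_ASO over the same WT_PBS mice. Dagla, which makes the endocannabinoid 2-arachidonoylglycerol, had a log2 fold change of -0.72, Tmem178b one of -0.87 and D430041D05Rik one of -1.02, with edgeR adjusted p of 0.191, 0.135 and 0.217.

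A pair of patterns could be seen among the lower genes by setting the other groups beside them. Tiam1, Dcun1d2, Tmem178b, Dagla and D430041D05Rik were also lower in KO_PBS than in WT_PBS, with log2 fold changes of -1.56, -0.49, -0.92, -0.85 and -1.12. Vps13a, a lipid transfer protein, Wwox, an oxidoreductase, and Arl15, a small GTPase, had log2 fold changes of -0.57, -0.58 and -0.77 in KO_ASO (edgeR adjusted p = 0.175, 0.217 and 0.217), of -0.73, -0.74 and -0.88 in WT_ASO and of -0.21, 0.11 and 0.11 in KO_PBS, each over the same WT_PBS mice. Dcaf4, a substrate receptor of cullin ligases, was low in KO_ASO alone among the group means, at 20.3, 17.3, 20.7 and 20.2 CPM against 27.1, 25.9, 25.9 and 24.5 CPM in WT_PBS, with a log2 fold change of -0.40 (SE 0.09, edgeR adjusted p = 0.135).

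Genes of the neuromuscular junction, the synapse between motor nerve and fibre, lay above wild type as a group. Of 20 genes of the junction and of denervation tested, edgeR called 0 and DESeq2 called 5, Chrna1, Chrnb1, Chrng, Kcnn3 and Ncam1. At an unadjusted p under 0.05, 9 were higher and 0 lower, and the 0 became 1 without KO_ASO mouse 1, 2 or 4. The groups did not overlap for 7 higher genes (35% against 2.38% over all genes) and for 1 lower, Rapsn, the scaffold that clusters the receptors, which is named after its values were seen. The median log2 fold change was 0.40, beside -0.0024 over all genes and 0.88 for KO_PBS over WT_PBS. By mouse, the median difference of the list from WT_PBS was 0.38, 0.51, 0.20 and 0.44 in KO_ASO and -0.0017, -0.20, 0.06 and 0.16 in WT_PBS, so each treated mouse lay above each wild-type mouse.

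Ncam1, the neural cell adhesion molecule that spreads over the fibre surface after denervation, stood at 8.28, 6.82, 8.27 and 8.63 CPM in WT_PBS and at 13.7, 11.5, 11.1 and 16.3 CPM in KO_ASO. The KO_ASO mice lay above wild type and below the KO_PBS mice, which had 32.2 to 46.0 CPM. The log2 fold change was 0.71 (SE 0.15, edgeR adjusted p = 0.115, over the alternatives 0.00359 to 0.400). Kcnn3, the SK3 potassium channel that embryonic and denervated fibres carry, stood at 6.55, 3.43, 5.32 and 4.04 CPM against 9.59, 9.59, 8.86 and 8.57 CPM, with a log2 fold change of 0.92 (SE 0.20, edgeR adjusted p = 0.135).

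Among the acetylcholine receptor subunits, the embryonic one had the largest fold change. Chrng, the gamma subunit that the adult receptor lacks, stood at 0.234, 0.186, 0.259 and 0.351 CPM in WT_PBS and at 1.49, 1.41, 0.658 and 0.557 CPM in KO_ASO, with mice 1 and 2 the higher. The fold change on the log2 scale was 1.97 (SE 0.49, edgeR adjusted p = 0.231), close to the 1.67 of KO_PBS over WT_PBS. Chrna1, the ligand-binding alpha subunit, stood at 18.8, 16.9, 19.5 and 20.7 CPM against 38.2, 44.8, 21.8 and 30.4 CPM, a log2 fold change of 0.83 (SE 0.21, edgeR adjusted p = 0.234).

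The remaining subunits, named for completeness after their values were seen, gave smaller differences. Chrnb1, the beta subunit, had 38.1 to 44.8 CPM in WT_PBS and 53.4 to 59.8 CPM in KO_ASO, without overlap, and a log2 fold change of 0.44 (SE 0.12, edgeR adjusted p = 0.239). Chrnd, the delta subunit, overlapped between groups, with 1.60 to 4.47 CPM against 4.12 to 7.39 CPM and a log2 fold change of 0.91 (SE 0.38, edgeR adjusted p = 0.556). Chrne, the subunit that replaces the gamma subunit in the adult receptor, had 17.4 to 20.2 CPM in WT_PBS and 16.8 to 20.8 CPM in KO_ASO. Runx1, a transcription factor that rises in denervated muscle, had 1.74 to 3.09 CPM against 3.03 to 5.98 CPM, with a log2 fold change of 0.81 (SE 0.25, edgeR adjusted p = 0.404).

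Because Myog is a basic helix-loop-helix factor that binds E-boxes, the stretch before the start of Myog itself and of the receptor genes Chrna1 and Chrng is shown. Each is the 250 bases before the RefSeq start on GRCm38.p6, 5′ to 3′ on the strand of the gene, with matches to the E-box CANNTG in capitals. The window of Myog is chr1:134289754-134290003 on the plus strand, that of Chrna1 is chr2:73580339-73580588 on the minus strand and that of Chrng is chr1:87205561-87205810 on the plus strand.
Myog: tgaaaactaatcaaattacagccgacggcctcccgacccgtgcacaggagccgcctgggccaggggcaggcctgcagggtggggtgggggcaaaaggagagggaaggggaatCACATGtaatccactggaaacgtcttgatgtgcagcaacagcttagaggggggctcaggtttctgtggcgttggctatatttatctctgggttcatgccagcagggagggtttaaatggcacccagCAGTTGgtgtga
Chrna1: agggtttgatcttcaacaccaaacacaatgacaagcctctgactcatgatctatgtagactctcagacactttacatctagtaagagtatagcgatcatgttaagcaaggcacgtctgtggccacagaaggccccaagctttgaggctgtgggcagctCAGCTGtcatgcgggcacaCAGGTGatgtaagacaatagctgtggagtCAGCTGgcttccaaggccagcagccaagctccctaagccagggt
Chrng: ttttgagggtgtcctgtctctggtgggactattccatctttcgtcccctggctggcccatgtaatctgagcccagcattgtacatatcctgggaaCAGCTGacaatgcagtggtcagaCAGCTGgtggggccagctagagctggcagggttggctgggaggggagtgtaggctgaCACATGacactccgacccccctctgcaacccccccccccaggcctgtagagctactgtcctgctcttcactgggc

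The motif CANNTG reads the same on both strands. It occurred 2 times in the window of Myog and 3 times each in those of Chrna1 and Chrng. It is common, being present in 21753 of 32851 promoter windows of that length (66.2%) and in 12 of 18 windows (66.7%) of the 14 genes of the junction list that had an entry. The stricter CAGCTG, which is contained in CANNTG, was present in 4271 windows (13%) and in 5 of the 18 (27.8%), and occurred 2 times each in Chrna1 and Chrng and 0 times in Myog. A match describes letters in a window and is not a measured binding site.

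Of 16 myogenic regulators tested, edgeR called 2, Sox11 and Myog, and the median was 0.12. At an unadjusted p under 0.05, 4 were higher and 2 lower (37.5% in either direction, against 8.22% over all genes). The median was 0.06, 0.21 and 0.19 without KO_ASO mouse 2, WT_PBS mouse 2 and WT_PBS mouse 4, and the 2 lower became 1 without KO_ASO mouse 1 or 2 or WT_PBS mouse 3 or 4. Pax7, the defining transcription factor of muscle stem cells, stood at 3.80, 5.36, 4.07 and 3.69 CPM in WT_PBS and at 2.5, 2.14, 3.15 and 1.78 CPM in KO_ASO, without overlap. This was a log2 fold change of -0.82 (SE 0.21, edgeR adjusted p = 0.242), beside -1.39 in KO_PBS over the same mice, and DESeq2 called it lower. Mymk, myomaker, which fuses myoblasts, stood at 0.468, 0.596, 0.337 and 0.627 CPM against 0.679, 0.991, 1.73 and 3.73 CPM, a log2 fold change of 1.80 (SE 0.62, edgeR adjusted p = 0.463).

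The 6 markers of satellite cells, the stem cells of muscle, gave a mixed picture. At an unadjusted p under 0.05, 3 were lower and 0 higher (50% in either direction, against 8.22% over all genes). The 3 became 1 without KO_ASO mouse 1 or 2 or WT_PBS mouse 4, and the median log2 fold change was -0.48. Among the members with a mean of at least 50 counts the median was -0.08. Myf5 and Calcr, which mark committed and quiescent satellite cells, had log2 fold changes of -0.86 (SE 0.37, edgeR adjusted p = 0.556) and -1.06 (SE 0.50, edgeR adjusted p = 0.598), both at levels below 2 CPM. The summed level of the list ran the other way, from 141 to 171 CPM in WT_PBS and from 157 to 183 CPM in KO_ASO.

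Most fetal and stress-induced sarcomere genes lay higher, with 10 of 12 positive and 2 negative. Of 12 tested, edgeR called 0, DESeq2 called 1, Myl4, and 7 were higher and 0 lower at an unadjusted p under 0.05, with 6 higher genes without overlap (50% against 2.38% over all genes). The 7 became 3 without KO_ASO mouse 1 and 4 without WT_PBS mouse 2. The median log2 fold change was 0.61, beside 1.29 in KO_PBS. Myl4, the embryonic and atrial light chain of myosin, stood at 6.96, 5.74, 4.59 and 5.17 CPM in WT_PBS and at 16.1, 19.3, 10.9 and 8.88 CPM in KO_ASO, a log2 fold change of 1.30 (SE 0.26, edgeR adjusted p = 0.103), and the gene Gm22000 lies on its other strand. Xirp1, an actin-binding protein that gathers at sites of fibre damage, stood at 238, 262, 202 and 188 CPM against 426, 448, 285 and 300 CPM, with a log2 fold change of 0.71 (SE 0.24, edgeR adjusted p = 0.444).

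Other members of that list showed the same separation. Tnnt2, cardiac troponin T, had a log2 fold change of 1.01 (SE 0.35, edgeR adjusted p = 0.468) and Flnc, the muscle filamin at the Z-disc, one of 0.52 (SE 0.18, edgeR adjusted p = 0.484), both without overlap. Csrp3, the muscle LIM protein of stretch sensing, and Ankrd2, a stretch-responsive ankyrin repeat protein, were named after their values were seen. Csrp3 stood at 111, 20.3, 141 and 77.9 CPM in WT_PBS and at 523, 233, 211 and 302 CPM in KO_ASO, a log2 fold change of 1.86 (SE 0.75, edgeR adjusted p = 0.556). Ankrd2 had one of 1.35 (SE 0.56, edgeR adjusted p = 0.556). WT_PBS mouse 2 was the lowest mouse for both genes.

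Slow fibre genes had the largest median of the lists drawn in the plot of list medians, and they varied widely between mice. The median log2 fold change over 12 genes was 1.20, beside 1.19 in KO_PBS, and 12 of 12 were positive. EdgeR called 0 and DESeq2 called 2, Sln and Tnni1, and 5 were higher at an unadjusted p under 0.05. By mouse the median difference from WT_PBS was 2.05, 0.66, 0.03 and 0.86 in KO_ASO and 0.50, -1.01, 0.50 and -0.43 in WT_PBS, so the groups overlapped. Without KO_ASO mouse 1 the median was 0.36, and the 5 became 3 without that mouse, WT_PBS mouse 2 or WT_PBS mouse 4.

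Sln, sarcolipin, which restrains the calcium pump of the sarcoplasmic reticulum, stood at 0.994, 0.670, 0.986 and 0.501 CPM in WT_PBS and at 3.39, 3.48, 1.49 and 2.58 CPM in KO_ASO. Its log2 fold change was 1.80 (SE 0.49, edgeR adjusted p = 0.289), beside 4.39 in KO_PBS. Tnni1, slow troponin I, stood at 3.60, 1.30, 3.76 and 3.18 CPM against 22.8, 5.11, 5.05 and 18.5 CPM, a log2 fold change of 2.11 (SE 0.58, edgeR adjusted p = 0.310). Atp2a2, the slow-fibre calcium pump, stood at 42.1, 40.6, 43.0 and 43.5 CPM against 94.6, 46.3, 46.1 and 64.1 CPM, a log2 fold change of 0.57 (SE 0.17, edgeR adjusted p = 0.371).

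KO_ASO mouse 1 stood apart for Myh7 and Tnnc1, slow genes whose groups overlapped. Myh7, the slow myosin heavy chain, named after its values were seen, stood at 3.74, 2.79, 5.94 and 2.13 CPM in WT_PBS and at 109, 4.99, 2.18 and 2.93 CPM in KO_ASO. Its log2 fold change of 3.03 (SE 1.18, edgeR adjusted p = 0.547) became -0.12 without that mouse. Tnnc1, slow troponin C, had 27.4 CPM in mouse 1 and 2.53 to 5.44 CPM in the other 3, with a log2 fold change of 1.81 (SE 0.69, edgeR adjusted p = 0.531).

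Fast fibre genes and the calcium release machinery lay close to wild type. Of 15 fast fibre genes, edgeR and DESeq2 each called 0 and 0 passed an unadjusted p under 0.05, and 13 were negative with a median of -0.14, beside -0.43 in KO_PBS. Without WT_PBS mouse 2 the median was -0.02 and 5 of the 15 were positive, and without WT_PBS mouse 1 or 4 there was 1 lower gene at an unadjusted p under 0.05. Atp2a1, the fast-fibre calcium pump, had 38308 to 47907 CPM in WT_PBS and 34643 to 37617 CPM in KO_ASO, a log2 fold change of -0.27 (SE 0.13, edgeR adjusted p = 0.613), and Rabep2 overlaps it on the other strand. Tnnc2, fast troponin C, had one of -0.22 (SE 0.12, edgeR adjusted p = 0.653).

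Of 18 genes of the triad, where transverse tubules meet the calcium stores, edgeR and DESeq2 each called 0, and 1 was lower at an unadjusted p under 0.05. The median was -0.08, beside -0.21 in KO_PBS, and 0.02 without WT_PBS mouse 2. The 1 became 0 without KO_ASO mouse 4 or WT_PBS mouse 2 or 3, and 2 without KO_ASO mouse 3 or WT_PBS mouse 1 or 4. That gene was Ryr1, the calcium release channel, at 4098, 4739.8, 4713 and 4155 CPM in WT_PBS and at 3914, 3456, 3683 and 3257 CPM in KO_ASO, a log2 fold change of -0.31 (SE 0.12, edgeR adjusted p = 0.547). Jph2, junctophilin 2, which ties tubules to stores, had one of -0.30 (SE 0.14, edgeR adjusted p = 0.616), Hrc, a calcium-binding protein of the stores, one of -0.15 (SE 0.08, edgeR adjusted p = 0.665) and Cacna1s, the voltage sensor, one of -0.15 (SE 0.09, edgeR adjusted p = 0.733).

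Of 21 genes of centronuclear myopathies and of the BAR and dynamin families, 2 were called, Bin1 and Dnm2. At an unadjusted p under 0.05, 1 was higher and 4 lower (23.8% in either direction, against 8.22% over all genes). The median was -0.09, which was -0.05 and -0.06 without WT_PBS mouse 1 and mouse 2. The 1 became 0 without KO_ASO mouse 2 or WT_PBS mouse 3 or 4. Amph, amphiphysin 1, the closest relative of Bin1, stood at 1.64, 1.45, 1.45 and 1.35 CPM in WT_PBS and at 0.923, 0.703, 1.07 and 1.01 CPM in KO_ASO. It lay lower in each KO_ASO mouse, with a log2 fold change of -0.67 (SE 0.25, edgeR adjusted p = 0.520), beside -0.95 in KO_PBS.

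Of 16 genes of membrane repair, edgeR called 0 and DESeq2 called 2, Ahnak2 and Anxa4. At an unadjusted p under 0.05, 5 were higher and 0 lower, with a median of 0.16 beside 0.65 in KO_PBS. The 5 became 3 without KO_ASO mouse 4, WT_PBS mouse 1 or WT_PBS mouse 4, and the median was 0.09 without KO_ASO mouse 4. Anxa7, an annexin of membrane fusion, had a log2 fold change of 0.48 (SE 0.16, edgeR adjusted p = 0.444) and S100a10, the partner of annexin A2, one of 0.52 (SE 0.23, edgeR adjusted p = 0.566), which overlapped because KO_ASO mouse 4 had 36.3 CPM and the other 3 had 15.4 to 19.9 CPM.

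**Figure D3:**
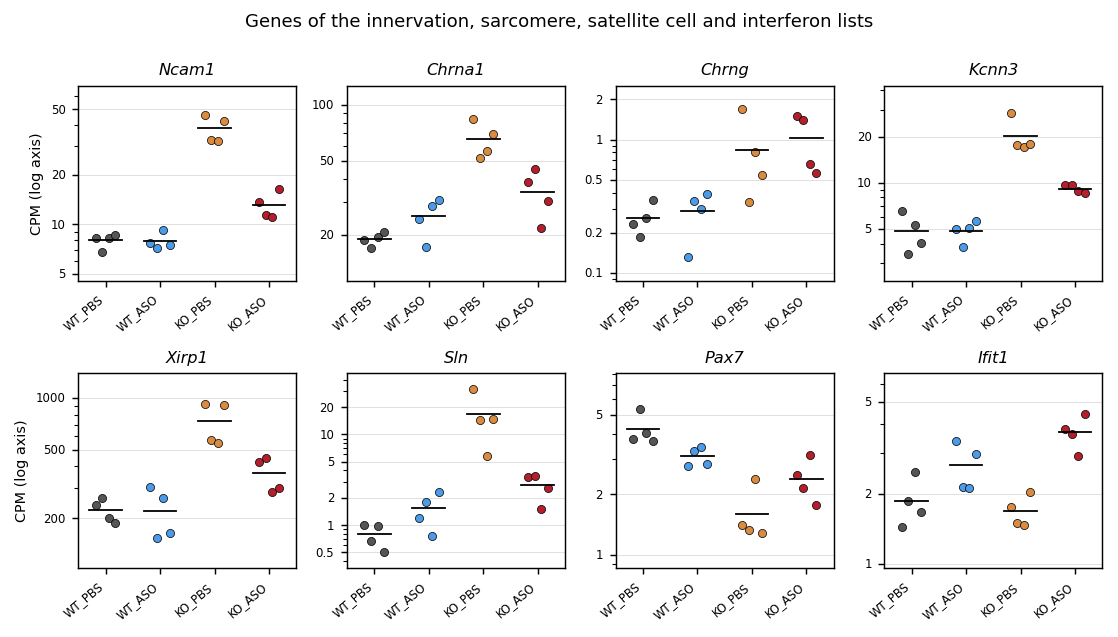
Each point is the level in 1 mouse in CPM on a log axis for 8 genes of the junction, sarcomere, slow fibre, satellite cell and interferon lists, in 4 groups of 4 mice, with the group mean as a line. KO_ASO mice do not overlap with WT_PBS mice in any of the 8, and lie above them in all but Pax7.

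Interferon-induced genes lay above wild type in treated knockout muscle, whereas their median in saline knockout muscle was near that of all genes, a difference between lists that was not itself tested. Of 20 tested, edgeR called 0 and DESeq2 called 3, Cxcl10, Ifi44 and Ifit1. At an unadjusted p under 0.05, 10 were higher and 0 lower, and 7 did not overlap (35% against 2.38% over all genes). The median log2 fold change over WT_PBS was 0.59 in KO_ASO, -0.04 in KO_PBS and 0.02 in WT_ASO, 3 comparisons that share the WT_PBS mice. By mouse the median difference was 0.62, 0.23, 0.21 and 0.98 in KO_ASO and -0.24, 0.14, 0.04 and 0.10 in WT_PBS. Without KO_ASO mouse 4 the median was 0.34 and 7 genes were higher at an unadjusted p under 0.05.

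Ifit1, which blocks translation of viral RNA, stood at 1.43, 1.86, 2.49 and 1.68 CPM in WT_PBS and at 3.80, 3.64, 2.91 and 4.42 CPM in KO_ASO, a log2 fold change of 0.98 (SE 0.21, edgeR adjusted p = 0.129, over the alternatives 0.00359 to 0.487). Ifi44, an interferon-induced protein, stood at 1.58, 1.83, 1.12 and 1.78 CPM against 3.29, 3.23, 2.70 and 3.97 CPM, a log2 fold change of 1.07 (SE 0.23, edgeR adjusted p = 0.149). Both genes were low in KO_PBS, at 1.46 to 2.05 CPM and 1.16 to 2.42 CPM.

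Cxcl10, a chemokine for T cells, had 2, 4, 4 and 4 counts in WT_PBS and 19, 34, 8 and 18 counts in KO_ASO. Its fitted log2 fold change was 2.59 (SE 0.66, edgeR adjusted p = 0.234), and it was the 1 member of the list called in KO_PBS over WT_PBS, at 3.30. Art3 overlaps it on the other strand. Isg15, a ubiquitin-like modifier, overlapped between groups, with a log2 fold change of 0.83 (SE 0.23, edgeR adjusted p = 0.274).

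Of 13 genes of antigen presentation edgeR and DESeq2 each called 0, with 2 higher at an unadjusted p under 0.05 and a median of 0.20, which was -0.11 without KO_ASO mouse 4. The 2 became 0 without KO_ASO mouse 1, KO_ASO mouse 4 or WT_PBS mouse 3, 1 without WT_PBS mouse 2 or 4, 4 without KO_ASO mouse 3 and 5 without KO_ASO mouse 2. B2m, the light chain of class I molecules, had 120, 86.2, 90.7 and 175 CPM in KO_ASO and 77.1 to 95.2 CPM in WT_PBS, and Psmb8, an immunoproteasome subunit, had 8.01, 5.98, 4.67 and 11 CPM against 4.66 to 6.02 CPM. Mice 1 and 4 were the high ones for both, as they were for the interferon list.

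Stress and growth genes held single members above wild type. Of 13 targets of p53 tested, edgeR called 0 and DESeq2 called 2, Cdkn1a and Eda2r, with 2 higher and 1 lower at an unadjusted p under 0.05 and a median of 0.11. That median was 0.0053 without KO_ASO mouse 4 and 0.06 to 0.07 without KO_ASO mouse 1, KO_ASO mouse 2 or WT_PBS mouse 1, and the 1 lower became 0 without KO_ASO mouse 3, KO_ASO mouse 4 or WT_PBS mouse 1. Eda2r, a TNF receptor family member, stood at 11.3, 14.4, 10.3 and 10.4 CPM in WT_PBS and at 37.4, 44.7, 21.4 and 19.0 CPM in KO_ASO, a log2 fold change of 1.41 (SE 0.35, edgeR adjusted p = 0.234). Cdkn1a, the cell cycle inhibitor p21, stood at 35.7, 15.1, 12.7 and 9.03 CPM against 27.2, 57.4, 41.9 and 50.9 CPM, a log2 fold change of 1.29 (SE 0.35, edgeR adjusted p = 0.289). WT_PBS mouse 1 overlapped with KO_ASO for Cdkn1a, and without it edgeR called the gene, with adjusted p over the alternatives from 0.00774 to 0.747.

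Of 8 metallothioneins and zinc transporters edgeR called 0 and DESeq2 called 3, Mt1, Mt2 and Mt3, which bind zinc and copper. These were the 3 higher at an unadjusted p under 0.05 (37.5% against 4.5% over all genes). Mt1 stood at 12, 8.12, 13.0 and 12.4 CPM in WT_PBS and at 24.7, 17.1, 22.6 and 44.8 CPM in KO_ASO, a log2 fold change of 1.26 (SE 0.33, edgeR adjusted p = 0.250). Mt2 had one of 1.79 (SE 0.43, edgeR adjusted p = 0.231), with Gm45774 on its other strand. In WT_ASO over the same WT_PBS mice these 2 genes had log2 fold changes of 1.53 and 1.77. Mt3, by contrast, had -0.24 in WT_ASO and 1.83 (SE 0.42, edgeR adjusted p = 0.216) in KO_ASO, at 2.53, 3.48, 2.18 and 9.82 CPM against 0.965 to 1.71 CPM.

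Ddit4, which holds back mTORC1 under stress, was the member of 15 atrophy and autophagy genes with the smallest p. It stood at 60.1, 42.8, 42.7 and 32.3 CPM in WT_PBS and at 115, 83.4, 92.5 and 127 CPM in KO_ASO, without overlap, and its log2 fold change was 1.23 (SE 0.46, edgeR adjusted p = 0.526), beside 1.23 in WT_ASO and 0.22 in KO_PBS. Of 14 genes of myostatin and activin signalling, DESeq2 called Fstl3, an activin-binding follistatin relative, which had 0.447 to 0.934 CPM in WT_PBS and 1.33 to 1.53 CPM in KO_ASO and a log2 fold change of 0.98 (SE 0.25, edgeR adjusted p = 0.234). EdgeR called 0 in both lists, with 1 and 2 higher at an unadjusted p under 0.05 and medians of 0.12 and 0.21. For atrophy and autophagy the 1 became 4 higher and 2 lower without KO_ASO mouse 4, 2 without KO_ASO mouse 3 or WT_PBS mouse 1 or 3, and 0 without WT_PBS mouse 4. The myostatin median was 0.37, 0.08 and 0.14 without WT_PBS mouse 2, WT_PBS mouse 3 and KO_ASO mouse 1, and the 2 became 1 without KO_ASO mouse 4 or WT_PBS mouse 4.

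The remaining lists lay near the median of all genes or spread widely between mice. For 22 genes of the extracellular matrix edgeR and DESeq2 called 0, with 3 higher at an unadjusted p under 0.05 and a median of 0.13, beside 0.88 in KO_PBS, and the 3 became 0 without KO_ASO mouse 4 or WT_PBS mouse 2 and 1 without KO_ASO mouse 2 or 3 or WT_PBS mouse 1 or 4. The matrix median was 0.33, 0.23, -0.0032 and -0.05 without KO_ASO mouse 1, 2, 3 and 4, 0.21 and 0.08 without WT_PBS mouse 1 and 3, and -0.11 with limma-voom. Their summed level was 1315, 1450, 3320 and 3630 CPM in the 4 KO_ASO mice, below and above the WT_PBS range of 2136 to 2529 CPM. For 16 nuclear genes of oxidative phosphorylation the median was -0.03, with 0 called by edgeR or DESeq2 and 0 at an unadjusted p under 0.05. For 17 clock genes it was -0.22 and for 17 immediate early genes 0.19, with 0 called by edgeR or DESeq2 and 1 and 3 genes at an unadjusted p under 0.05. For the clock genes the 1, which was lower, became 0 without KO_ASO mouse 2 or WT_PBS mouse 2, 3 or 4. Without KO_ASO mouse 4 it became 1 higher and 0 lower. It became 3 higher and 4 lower without WT_PBS mouse 1 and 1 higher and 4 lower without KO_ASO mouse 1, with medians of -0.34 and -0.35. The clock median was -0.12, -0.13 and -0.14 without KO_ASO mouse 3, KO_ASO mouse 4 and WT_PBS mouse 4. For the immediate early genes the 3 became 0 without KO_ASO mouse 4 and 1 without KO_ASO mouse 2, and the median ran from 0.03 without WT_PBS mouse 4 to 0.48 without WT_PBS mouse 3.

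**Figure D4:**
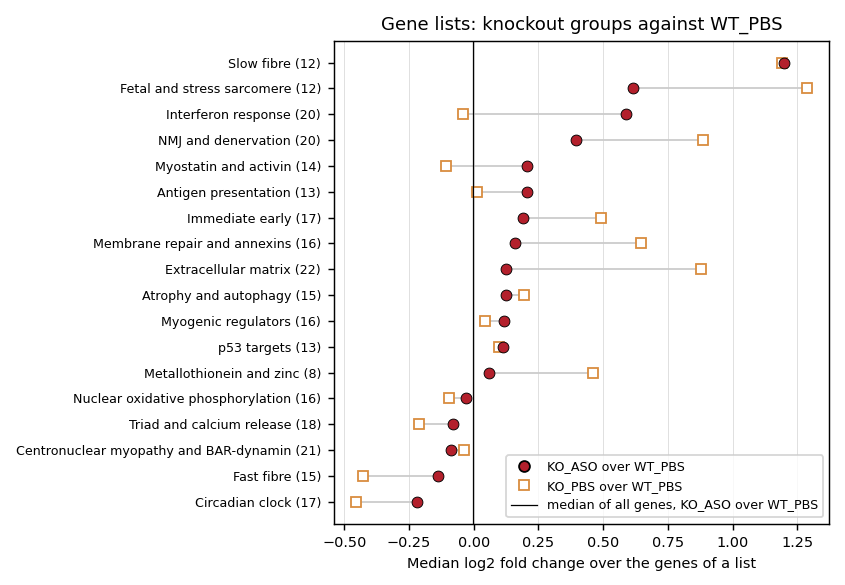
For each list, with its number of genes tested, the median log2 fold change is shown for KO_ASO over WT_PBS (filled circle) and KO_PBS over WT_PBS (open square), which share the WT_PBS mice; the vertical line is the median of all genes for KO_ASO. The circles of the slow fibre, fetal sarcomere, interferon and junction lists lie farthest to the right, at 1.20, 0.61, 0.59 and 0.40, and the interferon list is far to the right of its square at -0.04.

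Markers of other cells were set beside these lists. The 20 macrophage markers summed to 67.2 to 104 CPM in KO_ASO and to 63.1 to 100 CPM in WT_PBS, against 186 to 530 CPM in KO_PBS. Cd68 and Gpnmb, genes of the macrophage lysosome, had log2 fold changes of 0.78 (SE 0.31, edgeR adjusted p = 0.543) and 0.58 (SE 0.38, edgeR adjusted p = 0.744), beside 3.41 and 3.88 in KO_PBS. EdgeR and DESeq2 called 0 of the 20 in KO_ASO over WT_PBS, and 1 was higher at an unadjusted p under 0.05, which became 0 without KO_ASO mouse 4 and 2 without KO_ASO mouse 1 or WT_PBS mouse 3.

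Genes of dividing cells rested on 1 animal. Their summed level was 6.60, 8.02, 8.48 and 34.9 CPM in KO_ASO and 4.98 to 8.16 CPM in WT_PBS. Of 7 tested, 6 were higher at an unadjusted p under 0.05 and the median was 1.70, but without KO_ASO mouse 4 these became 1 and 0.46, and without WT_PBS mouse 3 or 4 the 6 became 3. Mki67, the proliferation antigen, had 1.0, 1.02, 1.56 and 8.50 CPM in KO_ASO and 0.337 to 0.965 CPM in WT_PBS, and Top2a, a topoisomerase of dividing cells, 0.625, 0.703, 0.865 and 8.43 CPM against 0.415 to 1.08 CPM.

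The same mouse carried the most transcripts of red blood cells. The summed level of these markers was 23.4, 51.9, 39.3 and 425 CPM in KO_ASO and 44.1 to 136 CPM in WT_PBS, and the median of the 5 genes tested, 0.67, became -1.19 without mouse 4 and 1.02 without KO_ASO mouse 1 or WT_PBS mouse 4. The part of these cells in the results for mouse 4 was not tested. Medians for fibroblast, endothelial and nerve and Schwann cell markers were 0.0048, -0.0075 and 0.04. Those of smooth muscle and pericytes, adipocytes and tendon were -0.23, 0.66 and -0.16. Each of the 7 smooth muscle and pericyte markers was negative, and 2 were lower at an unadjusted p under 0.05 (28.6% against 3.72% over all genes), which became 4 without WT_PBS mouse 2 and 1 without KO_ASO mouse 1 or 3 or WT_PBS mouse 1, 3 or 4. Their median was -0.13 without WT_PBS mouse 3 and -0.07 against both wild-type groups. The adipocyte median was 0.23 without KO_ASO mouse 1, 0.07 with limma-voom and 0.10 against both wild-type groups, with 0 of its 8 genes at an unadjusted p under 0.05, and that of tendon ran from -0.86 without KO_ASO mouse 3 to 0.17 without KO_ASO mouse 2. Of the neutrophil markers 3 of 7 passed the filter, with Ly6g at 0 in both groups, and of the lymphocyte markers 1 of 8.

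To read what remained without choosing genes on these mice, genes were picked in the other 8 animals. In KO_PBS against WT_ASO 1834 of 14499 genes (12.6%) were called, and their log2 fold changes were then read in a separate fit of KO_ASO against WT_PBS, which shares no sample with the selection. Of 1069 genes higher in KO_PBS, 988 passed the filter in these libraries and could be read. A gene low in wild type could therefore be read only where KO_ASO kept enough counts, and the shares are of the 988. Their median went from 0.88 in the selection to 0.22 in KO_ASO against WT_PBS. Of the 988, 830 (84.0%) had the same direction and 139 (14.1%) did not overlap, against 2.37% of all genes read. A difference of 2-fold or more was left in 68 (6.88%), against 1.12% of all genes read.

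The genes lower in KO_PBS were read in the same way. Of 765, 764 could be read, and their median went from -0.51 to -0.13. The direction was the same in 672 (88.0%), and 111 (14.5%) did not overlap, against 3.06% of all genes read. In all, 2 genes (0.262%) of this set were 2-fold lower or more, against 0.277% of all genes read. The selection set treated wild type against saline knockout, so a gene that the oligonucleotide lowers counts as higher in KO_PBS, as Dnm2, Wwox, Vps13a and Arl15 did.

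The 4 treated mice were not equally near to wild type. For the 988 genes the median difference from WT_PBS was 0.08, 0.24, 0.18 and 0.36 in KO_ASO mice 1 to 4 and 0.06, -0.05, 0.04 and -0.06 in the WT_PBS mice. For the 764 genes it was -0.05, -0.14, -0.08 and -0.28 against -0.02, 0.08, -0.05 and -0.02. KO_ASO mouse 1 lay nearest to the WT_PBS mice in both sets and mouse 4 farthest, and without mouse 4 the medians were 0.17 and -0.09.

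**Figure D5:**
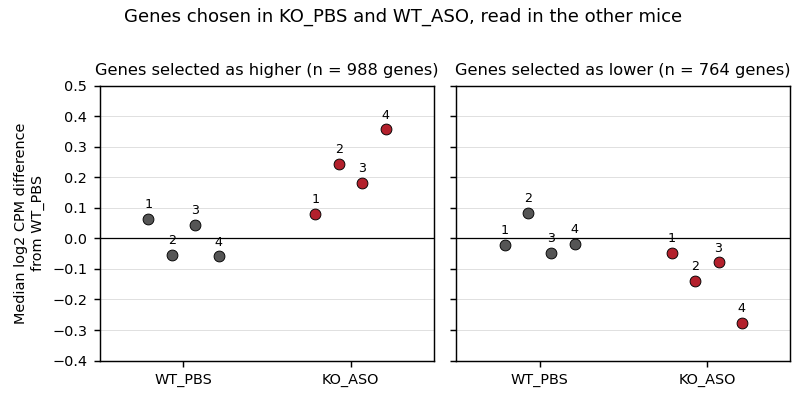
Each point is 1 mouse, numbered within its group, and shows the median log2 CPM difference from the WT_PBS mean over the 988 genes picked as higher (left) or the 764 picked as lower (right) in KO_PBS against WT_ASO. KO_ASO mice lie above WT_PBS mice on the left, and on the right mouse 1 lies at the edge of the WT_PBS range while mouse 4 is farthest from it.

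The lists were read within these sets, with no test of a difference between lists, and a median in the selection is raised because the genes were picked on it. Of 10 junction genes picked as higher, the median went from 1.73 to 0.76 and 5 did not overlap, against 14.1% of the picked set and 2.37% of all genes read. For 3 slow fibre genes it went from 2.87 to 1.80, for 4 fetal sarcomere genes from 1.12 to 0.62 and for 9 matrix genes from 1.41 to 0.51. For 9 membrane repair genes it went from 1.13 to 0.29, and for 6 macrophage markers from 1.67 to 0.04. Of these lists 3 slow fibre, 3 fetal sarcomere, 3 membrane repair, 0 matrix and 0 macrophage genes did not overlap. The medians were close for 5 markers of dividing cells, at 1.97 and 1.96, and for 3 targets of p53, at 1.42 and 1.29. They were also close for the 2 myogenic regulators picked as higher, Sox11 and Myog, at 2.78 and 2.69. In these lists 1, 1 and 2 genes did not overlap. The selection is over WT_ASO and the reading over WT_PBS. Over WT_PBS alone, Sox11 had a log2 fold change of 5.21 in KO_PBS and 3.45 in KO_ASO, and Myog 2.70 and 1.94. The full list of dividing cell markers had a median of 1.70, which became 0.46 without KO_ASO mouse 4. For the 2 myogenic regulators picked as lower the median went from -1.01 to -0.84. For 9 fast fibre genes picked as lower it went from -0.73 to -0.14. None of the 18 interferon genes read had been picked in either direction.

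Large differences that remained were counted among the 12209 genes with at least 1 CPM in either group. Of these, 101 were 2-fold higher or more in KO_ASO and 20 were 2-fold lower or more. Of the 101, 48 belonged to the set picked as higher in the other 8 mice, and of the 20, 2 belonged to the set picked as lower. Over all 14960 genes tested, including those under 1 CPM, the whole 95% interval lay beyond 2-fold higher for 19 genes and beyond 2-fold lower for 2, Bin1 and Mmp13.

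A few of those were singled out after their values were seen. Rrad, a small GTPase that inhibits calcium channels, had 0.965, 1.01, 2.28 and 0.802 CPM in WT_PBS and 2.66, 25.7, 4.95 and 4.70 CPM in KO_ASO, where mouse 2 reached the KO_PBS range of 22.4 to 32.3 CPM, as it did for Krt18. Its log2 fold change was 2.89 (SE 0.80, edgeR adjusted p = 0.311). Msln, mesothelin, a surface protein of mesothelial cells, had 0.234, 0.0372, 0.259 and 0.326 CPM against 0.489, 1.44, 1.28 and 0.697 CPM, a log2 fold change of 2.10 (SE 0.46, edgeR adjusted p = 0.150). Mmp13, a collagenase, had 2.34, 0.0745, 4.12 and 5.59 CPM in WT_PBS and 0.353, 0.0320, 0.104 and 0.105 CPM in KO_ASO, a log2 fold change of -4.27 (SE 0.92, edgeR adjusted p = 0.208). WT_PBS mouse 2 was as low as the treated mice for this gene, which edgeR called without that mouse (adjusted p = 0.00397, over the alternatives 0.00397 to 0.828) and DESeq2 called with it (adjusted p = 0.0159), and the 4 WT_ASO mice had 0 counts of it.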

How the data were processed

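RNA of tibialis anterior muscles was sequenced from stranded messenger RNA libraries of 16 mice. What the authors deposited was a table of raw counts by Ensembl gene, without normalization. Per the submitters' processing notes, HTSeq 0.6.1p1, STAR 2.5.3a, Bowtie2 2.2.8 and cutadapt 1.10 were used with build GRCm38 (mm10), in roles that are not stated. The strand setting of the counting is not given in the sources used here, so genes overlapping on opposite strands (Bin1, Dnm2, Myl4, Mt2, Cxcl10, Atp2a1, Tnnc2, Gabarapl1, Dbp, Ccna2 and Irf7 among others) stay uncertain. All libraries held between 27591900 and 40862854 counts. No paper describing this experiment was used, so the design was set here.

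Genes were filtered with filterByExpr (14960 of 29730 kept), scaled by TMM and fitted with edgeR 4.0.16 (R 4.3.3) by its robust quasi-likelihood test over all 16 samples with 1 mean per group, and p-values were adjusted by Benjamini and Hochberg over all genes tested. SE is the absolute log2 fold change over the square root of F, and 95% intervals use the t quantile. Non-overlap and the exact permutation test, two-sided, used log2 CPM with a prior count of 2. The script was tested on simulated counts. Alternatives were other size factors and filters, DESeq2 1.42.0, limma 3.58.1 (voom with quality weights), the 2 groups alone, both wild-type groups, a replicate block and leaving out each library. Sequences came from RefSeq on GRCm38.p6.

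Named were Bin1, Dnm2, each called gene, the 10 higher and 10 lower uncalled protein-coding genes with the smallest p, at least 1 CPM and no overlap, and up to 4 members of each list with the smallest p. Others are said to have been chosen after their values were seen. The groups, lists and tests were chosen with earlier results of these data known.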

Additional observations from a re-analysis of the deposited data

Results flagged for a closer look

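Among 26 named genes in 4 groups of 4 mice, 104 groups were examined for a mouse far from the other 3, and 6 such values were found, where chance gives about 1 in 20 groups. In KO_ASO, mouse 2 stood apart for 3 genes. Cpne2 was at 17.2 CPM in that mouse and at 9.69 to 9.80 CPM in the others, Krt18 was at 9.94 CPM against 0.697 to 2.01 CPM, and Dcaf4 was at 17.3 CPM against 20.2 to 20.7 CPM. In KO_PBS, mouse 1 stood apart for 3 genes. Tubb6 was at 82.9 CPM against 67.2 to 69.2 CPM, Krt18 at 17.1 CPM against 9.52 to 9.59 CPM and Serpinb1a at 74.2 CPM against 35.4 to 40.8 CPM.

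For 8 named genes the effect of genotype differed between treated and saline mice by edgeR's test of the difference itself. The knockout effect on the log2 scale was smaller under the oligonucleotide by 3.66 for Sox11 (a difference of -3.66, adjusted p = 0.00344, 5.21 in saline and 1.55 in treated mice) and by 2.85 for Ahnak2 (-2.85, adjusted p = 4.94e-04, 3.98 and 1.14). The difference was -2.20 for Serpinb1a (adjusted p = 0.0172), -1.63 for Cpne2 (adjusted p = 0.0366), -1.52 for Ncam1 (adjusted p = 0.00348), -1.51 for Mustn1 (adjusted p = 0.0316), -1.26 for Tnfrsf23 (adjusted p = 0.00535) and -1.08 for Anxa4 (adjusted p = 0.00344). Over all 14960 genes 86 (0.575%) passed this test, 77 with a negative and 9 with a positive sign of the knockout effect in treated minus that in saline mice, a sign that does not say whether the effect itself was smaller or larger.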

How the results depend on the processing

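The calls of Bin1, Dnm2, Gm44577 and Sox11 held in each alternative that tested them, while those of Myog and Tubb6 were lost in 15 and 16 of 25. The count of 6 called genes became 95 with DESeq2, 31 against both wild-type groups, 7 with limma-voom and 4 in the 2 compared groups alone. It ran from 4 (without WT_PBS 3) to 11 (without KO_ASO 3) when single libraries were left out. A fit with a block for replicate number called 8 genes, 6 higher and 2 lower, 4 of them among the 6, and the deviations of equally numbered KO_ASO and WT_PBS mice correlated at 0.08, -0.02, -0.07 and 0.15, so the numbers were not taken to pair the mice. The count of genes without overlap ran from 811 to 1473 when single libraries were left out, because fewer samples overlap less. Genes bounded within 2-fold numbered 11579 to 12132, Bin1 ran from -3.91 to -3.74 and Dnm2 from -1.31 to -1.11. Against both wild-type groups, which include the WT_ASO mice, Dnm2 had a log2 fold change of -0.62 (edgeR adjusted p = 0.0201). The median of genes picked as higher ran from 0.17 to 0.32 and that of genes picked as lower from -0.17 to -0.09. Picking higher genes also by 2-fold gave 0.45, since it takes the 412 larger ones. Myh7 ran from -0.12 (without KO_ASO mouse 1) to 3.41 when single libraries were left out, and Mmp13 became 0.59 against both wild-type groups, whose WT_ASO mice had 0 counts. Medians of the matrix, antigen presentation, triad, oxidative phosphorylation, macrophage, fibroblast, endothelial, nerve, tendon, neutrophil and red blood cell lists changed sign in at least 1 alternative. Against both wild-type groups the medians of the junction, fast fibre, atrophy and p53 lists were 0.26, -0.23, 0.02 and 0.05, and with limma-voom those of the antigen presentation, dividing cell and red blood cell lists were -0.02, 0.68 and -0.81 (0.10 for red blood cells with the replicate block). The depth and 4 mice a group left 2331 genes with an interval that held both 0 and a 2-fold difference.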

Other observations

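The oligonucleotide groups shared a small set of lower transcripts across both genotypes, in a comparison of the mean of both oligonucleotide groups with the mean of both saline groups that was added after the data were seen. edgeR called 63 of 14960 genes (0.421%), 13 higher and 50 lower. In 8 genes each of the 8 treated mice lay below each of the 8 saline mice, and no gene separated in the other direction. These were Dnm2, Wwox, Arl15, Fam168a, C1rl, Lmx1b, Fam78b and Gm42559. Wwox, an oxidoreductase of a large and fragile locus, stood at 6.32, 6.85, 7.11 and 7.27 CPM in WT_PBS, at 9.29, 7.00, 6.97 and 6.48 CPM in KO_PBS, at 3.60, 4.46, 3.49 and 4.89 CPM in WT_ASO and at 4.32, 4.28, 5.09 and 4.74 CPM in KO_ASO. Arl15, a small GTPase, stood at 3.09 to 4.40 CPM and 3.88 to 4.60 CPM in the saline groups and at 1.54 to 2.92 CPM and 1.87 to 2.79 CPM in the treated ones.

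Gm13394, annotated as a processed pseudogene on chromosome 2, was all or none. It stood at 339 and 540.4 CPM in KO_ASO mice 1 and 2 and at 1.18 and 1.36 CPM in mice 3 and 4, at 287 CPM in KO_PBS mouse 4 and at 0.386 to 1.22 CPM in the other KO_PBS mice, and at 1.12 to 2.0 CPM in the 8 wild-type mice. Its log2 fold change of KO_ASO over WT_PBS was 7.31 (SE 2.43, edgeR adjusted p = 0.463), and a processed pseudogene can share reads with its parent gene. Tph2, the neuronal enzyme of serotonin synthesis, had 2, 0, 2 and 1 counts in WT_PBS and 19, 10, 10 and 3 in KO_ASO, and Hspa1b, an inducible heat shock protein, had 1.03, 5.46, 0.727 and 4.46 CPM in KO_ASO against 0.298 to 0.882 CPM in WT_PBS, with mice 2 and 4 the high ones, as for Myog and Tubb6.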
